A study of Mus musculus with 4 samples.

Results

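The genes of calcium release, calcium uptake and store-operated calcium entry were followed in *Hnrnpl* knockdown and scrambled C2C12 myoblasts. They were chosen by name, as 9 genes among the 56748 gene IDs of the count files. The list holds the store pumps *Atp2a1* and *Atp2a2*, the pump inhibitor *Sln*, the release channels *Ryr1* and *Itpr3*, the luminal calcium buffer *Casq2*, the store-entry genes *Stim1* and *Orai1*, and *Calm2*, which encodes the calcium sensor calmodulin. *Calm2*, *Atp2a2*, *Itpr3*, *Orai1* and *Stim1* had enough reads to be tested, whereas *Ryr1* and *Casq2* had 3 and 7 reads over all libraries and *Atp2a1* and *Sln* had 0. Of the 5 tested genes, 0 were called changed in knockdown, where 5.55% of all 8670 tested genes were called. *Calm2* had the lowest adjusted p of the 5, 0.0899 by edgeR's quasi-likelihood test after Benjamini-Hochberg adjustment, with a log2 fold change of 0.40. Both knockdown libraries lay above both scrambled libraries for *Calm2*, and groups did not overlap in 52.4% of all tested genes. With each chromosome's median taken out, *Calm2* had a value of 0.20 (adjusted p = 0.553 from edgeR).

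C2C12 is a mouse myoblast line that fuses into myotubes when serum is lowered. All cells were of WT genotype, were kept in growth medium with serum and carried a plasmid with an shRNA and an eGFP reporter, followed by selection of stable cells with puromycin. The 2 scrambled libraries came from cells with a scrambled shRNA, and the 2 knockdown libraries from cells with a mixture of 3 shRNAs against *Hnrnpl*, which encodes an RNA-binding protein that acts in splicing and mRNA stability. Each batch named in the labels held 1 scrambled and 1 knockdown library, and the libraries of a condition were passages of 1 selected stable line, so that the p-values below measure the spread between passages and not between independently derived lines. Native RNA molecules were read directly on nanopores, and the files gave 1229424 to 1676911 reads counted on genes per library. In each library 16.0% to 16.5% of the reads were listed as ambiguous between genes and 22.7% to 23.8% as too low in mapping quality. In bulk RNA, fewer cells of a type and less RNA per cell cannot be told apart.

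In skeletal muscle, calcium is stored in the sarcoplasmic reticulum. Depolarization opens the ryanodine receptor and releases calcium onto the myofilaments, and the SERCA pumps, encoded by the *Atp2a* genes, return it to the store, where calsequestrin binds it. Small transmembrane peptides such as sarcolipin and phospholamban restrain the pump. Myoblasts before fusion have little of this apparatus and can release calcium through inositol trisphosphate receptors. When the store runs low, STIM proteins in its membrane sense the loss and open ORAI channels in the plasma membrane, and calmodulin carries the calcium signal to kinases and to the phosphatase calcineurin.

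The 3 shRNA target sites are shown because they define the perturbation, and because the calcium genes were searched for the same bases. All lie in the coding part of *Hnrnpl* on the forward strand of chromosome 7 (GRCm39), site 1 in exon 2 (chr7:28512764-28512784), site 2 across the junction of exon 3 (chr7:28513501-28513516) and exon 4 (chr7:28513627-28513631), and site 3 in exon 8 (chr7:28518269-28518289). Capitals mark bases 14 to 20, which pair with the seed of the shRNA guide strand.
Hnrnpl site 1: attgacggagtagTGGAAGCt
Hnrnpl site 2: ctactccataaccACGGATGt
Hnrnpl site 3: atggtctatggctTGGATCAa
No full site was found on either strand of the canonical transcript of any of the 9 calcium genes. The capital letters alone of sites 1, 2 and 3 were found in the canonical transcripts of 2, 1 and 4 of the 9 genes, respectively, among them the 15358 nt transcript of *Ryr1* for every site, and these letters were also in 37.6%, 10.0% and 23.1% of 8662 tested transcripts.

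*Hnrnpl* itself had counts of 358 and 656 in scrambled 1 and 2 compared with 242 and 258 in knockdown 1 and 2. The normalized counts were 463 ± 125 in scrambled and 271 ± 42.7 in knockdown (SD, n = 2 each), a log2 fold change of -0.78 (95% interval -1.15 to -0.41, adjusted p = 0.0112 from edgeR with Benjamini-Hochberg adjustment). Every knockdown library was below every scrambled library. The log2 fold change was -1.03 without scrambled 1, -0.48 without scrambled 2, -0.62 without knockdown 1 and -0.95 without knockdown 2. In such fits only the group with 2 libraries gives the spread.

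The SERCA pumps were represented by one gene. *Atp2a2* (chr5:122591575-122640903, reverse strand) encodes SERCA2, which myoblasts and cardiac and slow muscle use, and had 240 and 267 reads in scrambled 1 and 2 against 271 and 207 reads in knockdown 1 and 2. Its normalized counts, which are counts scaled to a common library size, were 251 and 225 in scrambled compared with 270.0 and 242 in knockdown. The groups overlapped, since scrambled 1 lay above knockdown 2. The log2 fold change was 0.11 with a standard error of 0.15 (95% interval -0.20 to 0.42, adjusted p = 0.720 from edgeR with Benjamini-Hochberg adjustment). The 2 batches gave nearly the same value, 0.10 in batch 1 and 0.11 in batch 2. The median log2 fold change of all tested genes on chromosome 5 was 0.23, and relative to it *Atp2a2* had a value of -0.12.

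*Atp2a1* (chr7:126045013-126063423, reverse strand) encodes SERCA1, the pump of fast muscle fibres, and it had 0 reads in every library. *Atp2a3*, which encodes the SERCA3 pump of non-muscle cells, had 0 reads as well. *Atp2a2* thus held 100% of the *Atp2a* reads in each library. A count of 0 allows up to 3 reads per library, which is 2.16, 1.79, 2.18 and 2.44 CPM (counts scaled to a common total of counted reads) in scrambled 1, scrambled 2, knockdown 1 and knockdown 2, and these limits cover counting error only. The exons of *Rabep2* on the opposite strand overlap *Atp2a1* by 1188 bp and cover 53.8% of the last 500 nt of its exons, and *Rabep2* had 0 reads too. Whether the counting used the strand is not given in the sources used here.

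*Sln* (chr9:53742537-53761846, forward strand) encodes sarcolipin, which lowers the calcium transport of SERCA, and had 0 reads in every library. *Pln*, the phospholamban gene, also had 0 reads, and *Mrln*, the gene of the peptide myoregulin, had 1 read in scrambled 2 and 0 elsewhere. Of the 6 pump-regulator genes looked at, 2 had any reads. The one with many reads was *Arln*, which encodes another-regulin, a SERCA-binding peptide of non-muscle tissue, with counts of 323 and 364 in scrambled against 299 and 328 in knockdown. Its log2 fold change was 0.08 (95% interval -0.24 to 0.40, adjusted p = 0.814 from edgeR).

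Release channels were read mostly from the inositol trisphosphate receptor family. *Itpr3* (chr17:27275971-27343866, forward strand), the gene of the type 3 receptor, had 49 and 101 reads in scrambled 1 and 2 compared with 71 and 84 reads in knockdown 1 and 2. Its normalized counts were 51.3 and 85.0 in scrambled against 70.7 and 98.2 in knockdown, so that the groups overlapped and scrambled 1 was the lowest library. The log2 fold change was 0.28 with a standard error of 0.23 (95% interval -0.21 to 0.77, adjusted p = 0.533 from edgeR with Benjamini-Hochberg adjustment). The value moved with each library left out, to -0.02 without scrambled 1, 0.70 without scrambled 2, 0.50 without knockdown 1 and 0.03 without knockdown 2, and none of these passed the threshold. It was 0.46 in batch 1 and 0.21 in batch 2, and the median of chromosome 17 was 0.19.

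*Itpr3* held 65.3%, 87.8%, 76.3% and 89.4% of the 75, 115, 93 and 94 *Itpr* reads in scrambled 1, scrambled 2, knockdown 1 and knockdown 2. It was the leading receptor gene in each library, and its share was higher in both libraries numbered 2 than in both numbered 1. *Itpr1*, the type 1 receptor, had 15 and 6 reads in scrambled compared with 8 and 4 in knockdown and was too low to be tested. *Itpr2*, the type 2 receptor, had 11, 8, 14 and 6 reads and a log2 fold change of 0.26 (95% interval -0.76 to 1.29, adjusted p = 0.803 from edgeR). *Itpr3* overlaps *Uqcc2* on the opposite strand by 444 bp, and *Uqcc2* had 744, 812, 537 and 638 reads. If strand was not used in counting, reads of the pair in the overlap cannot be told apart.

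*Ryr1* (chr7:28702769-28824604, reverse strand) encodes the ryanodine receptor of skeletal muscle, with 106 exons. It had 1 read in scrambled 1, 2 reads in knockdown 2 and 0 in the other libraries. The summed reads were 1 in scrambled (95% Poisson interval 0.025 to 5.57) and 2 in knockdown (0.24 to 7.22), so that no difference was detectable at this depth. The other ryanodine receptor genes were read as rarely, since *Ryr2*, the cardiac form, had 1 read in each scrambled library and 0 in knockdown and *Ryr3* had 0 throughout. *Ryr1* lies 181076 bp from *Hnrnpl* on chromosome 7. Its canonical transcript is the longest of the 9.

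The buffer of the muscle store was near the limit of detection. *Casq2* (chr3:101993234-102056307, forward strand) encodes calsequestrin 2, the cardiac and slow-muscle form, and had 1 and 2 reads in scrambled 1 and 2 against 0 and 4 in knockdown 1 and 2. The libraries of knockdown spanned those of scrambled. The ratio of the depth-scaled reads, knockdown over scrambled, was 1.54 with an exact 95% counting interval of 0.26 to 10.5. *Casq1*, the fast-muscle form, had 1 read in knockdown 2 alone. The store buffer with the most reads was *Calr*, which encodes calreticulin of the endoplasmic reticulum, with 1288 and 1343 reads in scrambled compared with 1186 and 892 in knockdown and a log2 fold change of -0.15 (adjusted p = 0.567 from edgeR).

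**Figure D1:**
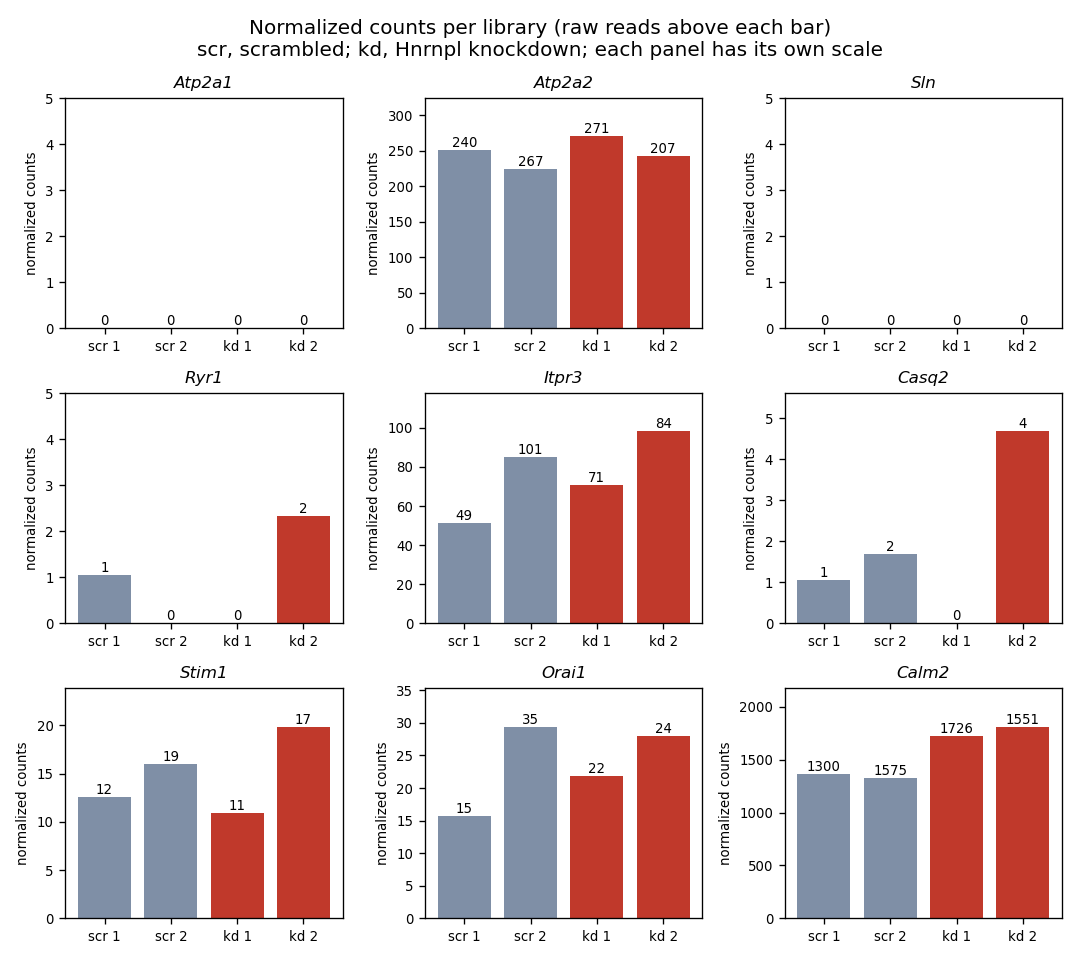
Normalized read counts (vertical axis, each panel with its own scale) of the 9 calcium genes in scrambled 1 and 2 (grey bars) and knockdown 1 and 2 (red bars), with the raw reads written above each bar. *Calm2* is the gene whose knockdown libraries both stand above both scrambled libraries, *Atp2a1* and *Sln* have 0 reads, and *Ryr1* and *Casq2* have at most 4 reads in a library. Groups do not overlap in 52.4% of all tested genes.

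Store-operated entry had few reads and wide intervals. *Stim1* (chr7:101916979-102086526, forward strand), the sensor of the store, had 12 and 19 reads in scrambled 1 and 2 against 11 and 17 reads in knockdown 1 and 2. The normalized counts were 12.6 and 16.0 in scrambled compared with 11.0 and 19.9 in knockdown, and the scrambled values lay between the knockdown values. The log2 fold change was 0.07 with a standard error of 0.41 (95% interval -0.79 to 0.93, adjusted p = 0.946 from edgeR with Benjamini-Hochberg adjustment). The batches differed in sign, with -0.20 in batch 1 and 0.31 in batch 2. The sign turned without scrambled 1 (-0.08) and without knockdown 2 (-0.39), and the value was 0.26 without scrambled 2 and 0.46 without knockdown 1.

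*Stim2*, whose product senses smaller losses from the store, had more reads than *Stim1* in every library. *Stim1* held 26.1% and 24.1% of the *Stim* reads in scrambled against 17.5% and 27.9% in knockdown. These shares came from 46 to 79 reads per library, and the exact binomial intervals overlapped, the lowest reaching from 9.05% to 29.1% and the highest from 17.1% to 40.8%. *Stim2* had a log2 fold change of 0.24 (95% interval -0.28 to 0.76, adjusted p = 0.612 from edgeR).

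*Orai1* (chr5:123153043-123168535, forward strand) encodes the pore of the entry channel and had 15 and 35 reads in scrambled 1 and 2 compared with 22 and 24 reads in knockdown 1 and 2. Both knockdown values, 21.9 and 28.0 normalized counts, lay between those of scrambled, 15.7 and 29.4. The log2 fold change was 0.10 with a standard error of 0.35 (95% interval -0.64 to 0.84, adjusted p = 0.905 from edgeR with Benjamini-Hochberg adjustment). It was 0.48 in batch 1 and -0.07 in batch 2. The value was -0.25 without scrambled 1, -0.08 without knockdown 2, 0.65 without scrambled 2 and 0.28 without knockdown 1. *Orai1* and *Atp2a2* both lie on chromosome 5 with 512140 bp between them, and relative to the chromosome median *Orai1* had a value of -0.13.

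The *Orai* family was read from all its genes. *Orai1* took 30.6%, 48.6%, 36.1% and 33.3% of 49, 72, 61 and 72 reads in scrambled 1, scrambled 2, knockdown 1 and knockdown 2. *Orai2*, a channel subunit that can join *Orai1* in a mixed channel, had 20 reads in each scrambled library and 24 and 32 in knockdown. Its groups did not overlap, as was so for 52.4% of all tested genes. The log2 fold change of *Orai2* was 0.69 (95% interval -0.02 to 1.40, adjusted p = 0.247 from edgeR), and the median of its chromosome was 0.23. *Orai3* had 14, 17, 15 and 16 reads and a log2 fold change of 0.21 (adjusted p = 0.802 from edgeR).

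**Figure D2:**
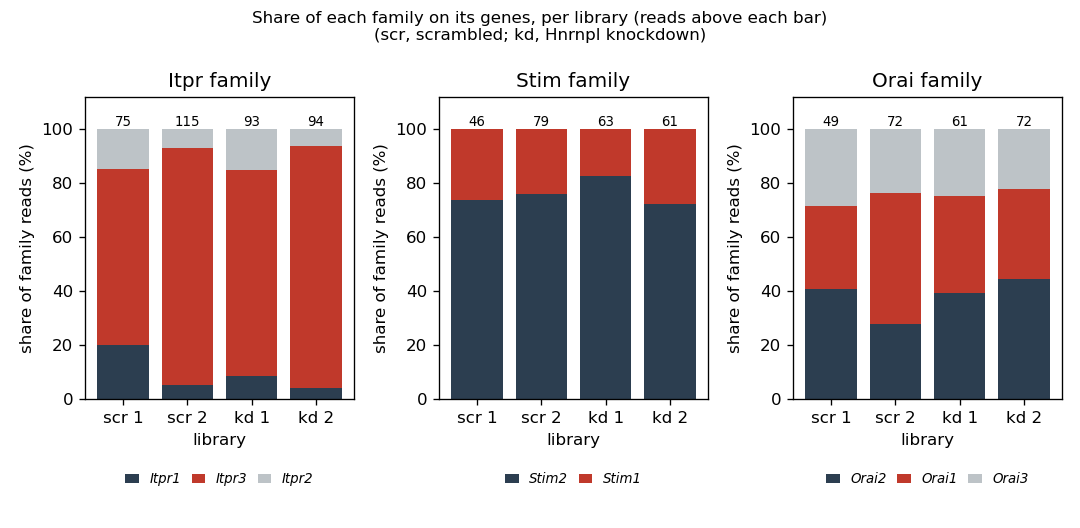
Share of the reads of a gene family that fall on each of its genes (vertical axis, percent) in scrambled 1 and 2 and knockdown 1 and 2, with the family's reads above each bar and *Itpr3*, *Stim1* and *Orai1* in red. Their shares overlap between the groups, and *Itpr3* leads its family in each library while *Stim1* holds 17.5% to 27.9% of the *Stim* reads.

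The calcium sensor calmodulin is encoded by *Calm2* and also by *Calm3*, which gives the same protein with different codons and untranslated regions. Coding bases 4 to 33 of both genes, counted from the A of the start codon and in exon 2 of each, are shown because reads of the coding part can be told apart only at such positions. Capitals mark the bases at which the sequences differ. They were read from GRCm39 on the strand of each gene.
Calm2, chr17:87750125-87750154, reverse strand: gctgaccaActgactgaAgaGcagattgca
Calm3, chr7:16653561-16653590, reverse strand: gctgaccaGctgactgaGgaAcagattgca
*Calm3* differed from *Calm2* at 3 of these 30 bases. Over the 447 coding bases it was identical to *Calm2* at 369, or 82.6%.

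*Calm2* (chr17:87740829-87754363, reverse strand) had 1300 and 1575 reads in scrambled 1 and 2 against 1726 and 1551 reads in knockdown 1 and 2. Its normalized counts were 1361 and 1325 in scrambled (1343 ± 25.5, SD, n = 2) and 1720 and 1813 in knockdown (1766 ± 65.8, SD, n = 2). The raw count of knockdown 2 was below that of scrambled 2 because scrambled 2 was the deepest library and knockdown 2 the shallowest, and after scaling both knockdown libraries lay above both scrambled libraries. The log2 fold change was 0.40 with a standard error of 0.13 (95% interval 0.11 to 0.68, adjusted p = 0.0899 from edgeR with Benjamini-Hochberg adjustment). It was 0.34 in batch 1 and 0.45 in batch 2. The difference did not pass either threshold of a call, an adjusted p under 0.05 and a log2 fold change over 0.5.

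The median of chromosome 17, which holds *Calm2*, was 0.19. Once each chromosome's median was taken out, *Calm2* had a value of 0.20 (adjusted p = 0.553 from edgeR). The part of the chromosome in the difference was not tested beyond this. With no filter on low counts and 16728 genes tested, the adjusted p of *Calm2* was 0.0355 at a log2 fold change of 0.39, still under the fold threshold. *Calm2* was higher in knockdown under each of the 13 alternative settings, with values from 0.20 to 0.43 and adjusted p from 0.0355 to 0.553.

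*Calm3*, the other calmodulin gene shown above, had 449 and 659 reads in scrambled 1 and 2 against 444 and 330 reads in knockdown 1 and 2. Its normalized values did not overlap between the groups and were lower in knockdown, opposite in direction to *Calm2*. Groups did not overlap in 52.4% of all tested genes. The log2 fold change of *Calm3* was -0.31 (95% interval -0.61 to -0.01, adjusted p = 0.219 from edgeR with Benjamini-Hochberg adjustment). The median of its chromosome was -0.07. Whether *Calm2* and *Calm3* differed in their change was not tested.

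Copies of *Calm2* sequence elsewhere in the genome could take or lend reads. The canonical *Calm2* transcript of 1216 nt aligned at 94.7% over 1125 nt to the processed pseudogene *Gm7308*, which had 1 read in scrambled 1 and 0 elsewhere. It also aligned at 95.8% over 1126 nt to a stretch with no annotated gene, at 90.4% over 774 nt to *Gm10489* and at 96.9% over 289 nt to a stretch within *Itpr2*. A near copy of *Atp2a2* of 317 nt at 99.1% lies within *Vwa8*, and no stretch of at least 200 nt at 90% identity was found for *Itpr3*, *Stim1* or *Orai1*. How the mapping split such reads was not tested.

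The levels of the genes with reads spanned several orders of magnitude. Per kilobase of canonical transcript and averaged over the 4 libraries, *Calm2* had 912 TMM-scaled CPM, *Atp2a2* 39.7, *Orai1* 8.55, *Itpr3* 6.05, *Stim1* 2.38, *Casq2* 0.24 and *Ryr1* 0.039. *Orai1* and *Itpr3* were neighbours in this order. Direct RNA reads start from the poly(A) tail and 1 read is counted per molecule, so that the order per molecule, without division by length, placed *Itpr3* above *Orai1*, with 36.6 to 70.0 against 11.2 to 21.0 TMM-scaled CPM per library.

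Of the 9 genes, 5 were tested and 0 were called higher or lower, whereas over all 8670 tested genes 5.55% were called, 2.33% higher and 3.22% lower. No gene of the 5 had an adjusted p under 0.05, against 5.95% of all tested genes, and 1 of the 5, *Calm2*, had groups that did not overlap, against 52.4%. At an unadjusted p under 0.05 there was also 1, again *Calm2*, where 21.8% of all tested genes were below that p. DESeq2 with the local or the parametric fit called none of the 9 either. All 5 fold changes were positive with all libraries in the fit, with a median of 0.11 on the log2 scale where the median of all tested genes was -0.00059, and those of *Atp2a2* and *Orai1* turned negative with the chromosome medians removed.

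For *Calm2*, the gene whose groups did not overlap, the tested genes with the most similar profile included *Enpp4* and *3830403N18Rik*, the nearest ones. Their root mean square distances from *Calm2* were 0.0043 and 0.018 on the log2 scale of normalized counts centred over the 4 libraries, among 8499 candidate genes. With 4 libraries such nearness is common, and 501 genes lay within 0.1.

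The wider calcium lists held 81 genes, of which 66 had reads and 48 were tested. Among the tested genes 26 had a positive and 22 a negative fold change, with a median of 0.07. By the full rule for a call, 1 gene was called lower and 0 higher, or 2.08% called against 5.55% of all tested genes. At an unadjusted p under 0.05 there were 8 of the 48, where 21.8% of all tested genes were. DESeq2 called 0 of them with either fit. Without the 9 genes, the median of the remaining 43 tested genes was -0.02.

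The called gene was *Cacng1*, which encodes the gamma subunit of the muscle voltage-gated calcium channel, the sensor that opens *Ryr1*. Its reads were 87 and 127 in scrambled compared with 66 and 50 in knockdown, giving -0.67 on the log2 scale (95% interval -1.08 to -0.27, adjusted p = 0.0444 from edgeR with Benjamini-Hochberg adjustment). *Cacng1* lost the call through its adjusted p with the chromosome medians removed (-0.56, adjusted p = 0.136 from edgeR). The same held in DESeq2 (-0.68 with either fit, adjusted p = 0.266 and 0.627). The call was also lost without scrambled 2 (-0.56), knockdown 1 (-0.77) or knockdown 2 (-0.60), where only the group with 2 libraries gave the spread. The fold stayed beyond the threshold in all of these. *Cacng1* was 1 of 12 genes of the triad, the junction at which the muscle membrane meets the store, of which 6 were tested. *Cacna1s*, the pore of the same channel, *Trdn*, which anchors calsequestrin to *Ryr1*, *Jsrp1* and *Jph4* had 0 reads, and *Bin1*, a shaper of the membrane tubule, had the most reads, 208 and 291 in scrambled against 193 and 119 in knockdown (log2 fold change -0.48, adjusted p = 0.104 from edgeR).

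A pair of other genes passed the adjusted p without the full call, so that with *Cacng1* 3 of the 48 tested calcium genes passed it, near the 5.95% of all tested genes. *Ahcyl1* encodes IRBIT, which binds the inositol trisphosphate receptor in competition with its ligand. It had 228 and 289 reads in scrambled compared with 353 and 282 in knockdown, and its log2 fold change of 0.50 fell just short of the fold threshold (95% interval 0.20 to 0.80, adjusted p = 0.0445 from edgeR). The adjusted p of *Ahcyl1* from edgeR was 0.0775 with the replicate block (0.50 on the log2 scale) and 0.156 with the chromosome medians removed (0.40). In DESeq2 it was 0.125 with the local and 0.411 with the parametric fit. With 1 library left out the log2 fold change of *Ahcyl1* was 0.45 to 0.54. Its adjusted p no longer passed there, where only the group with 2 libraries gave the spread. *Atp2b4*, a plasma membrane calcium pump, had 12 and 16 reads in scrambled against 1 and 2 in knockdown (adjusted p = 0.0087 from edgeR), with a mean normalized count under the threshold of 10. With 1 library left out its log2 fold change was -3.56 to -2.42 and its adjusted p no longer passed, where only the group with 2 libraries gave the spread. In DESeq2 with the parametric fit its adjusted p was 0.387. Its ratio of depth-scaled reads, knockdown over scrambled, was 0.12 with an exact 95% counting interval of 0.024 to 0.40. *Atp2b1*, the plasma membrane pump with the most reads, had 145 and 174 reads in scrambled compared with 191 and 150 in knockdown and a log2 fold change of 0.30 (95% interval -0.03 to 0.62, adjusted p = 0.283 from edgeR).

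No gene of the store-entry, calmodulin and mitochondrial lists passed the adjusted p, where 5.95% of all tested genes did. Of 8 tested store-entry genes, 7 had a positive and 1 a negative fold change, the negative one being *Saraf*, which encodes an inhibitor of store entry and had the most reads of that list (125, 149, 122 and 90 in scrambled 1, scrambled 2, knockdown 1 and knockdown 2). The value of *Saraf* was -0.17 on the log2 scale (adjusted p = 0.594 from edgeR). The 7 positive store-entry genes lay on chromosomes with medians from -0.36 to 0.24, with *Stim2*, *Orai1* and *Orai2* on chromosome 5 (0.23). The part of the chromosomes in these signs was not tested. Of 9 tested genes of calmodulin and its kinases and phosphatase, 3 had a positive and 6 a negative value. Among 5 tested regulators of the release channels, *Ahcyl1* included, *Fkbp1a*, which encodes the FKBP12 protein that binds *Ryr1*, had the most reads and a log2 fold change of -0.06 (95% interval -0.33 to 0.22, adjusted p = 0.852 from edgeR). Of 8 tested genes of mitochondrial calcium uptake, 4 had a positive and 4 a negative value, and *Vdac1*, the outer membrane channel, had the most reads and a log2 fold change of 0.02 (adjusted p = 0.949 from edgeR).

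**Figure D3:**
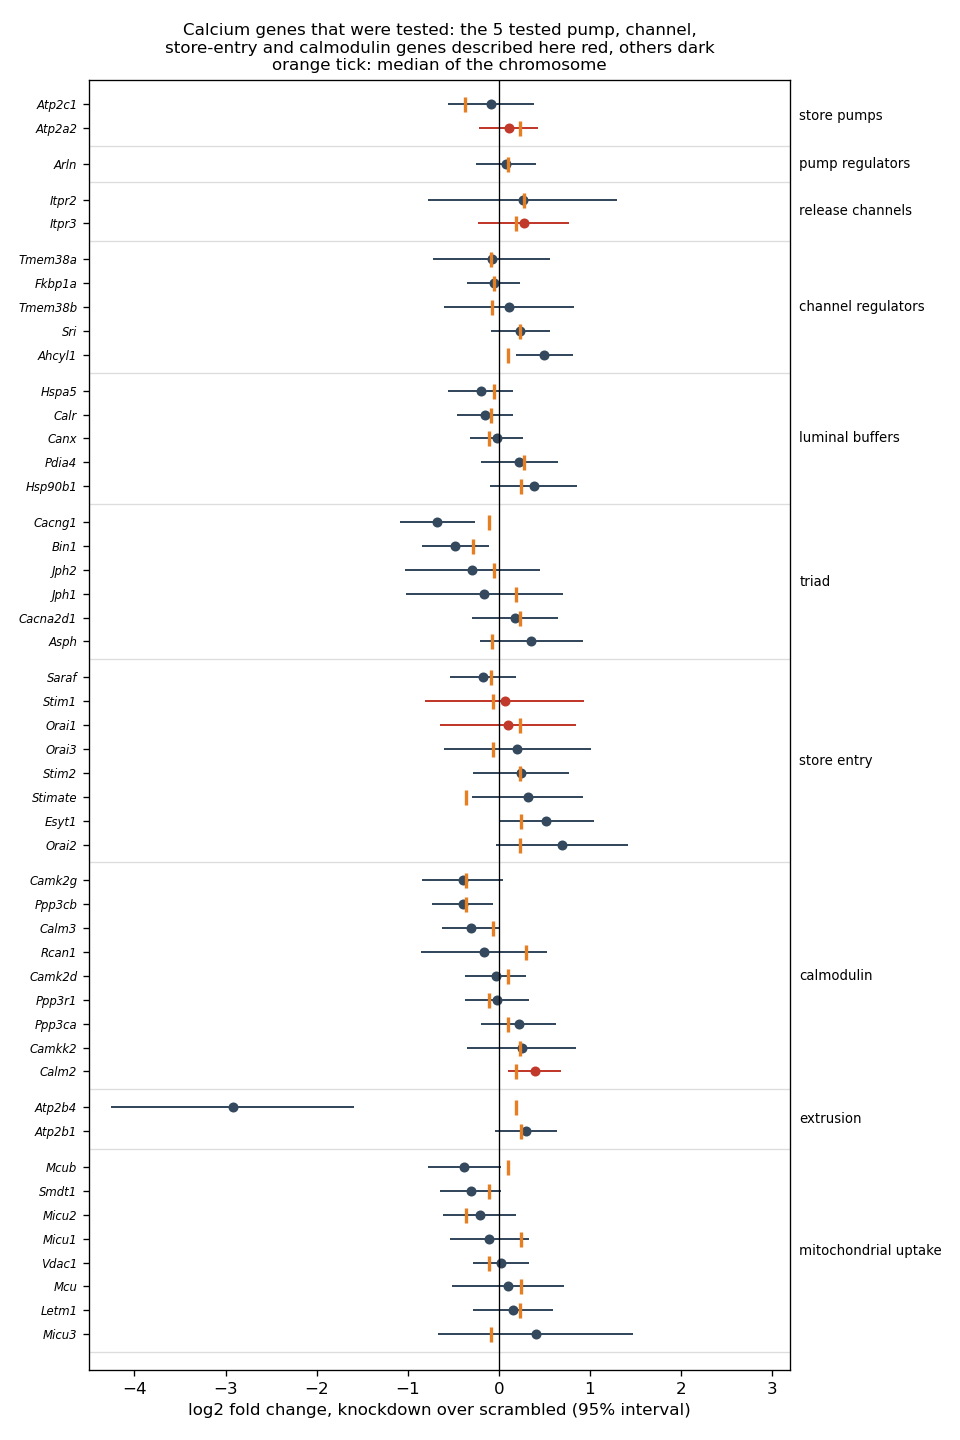
Log2 fold change of knockdown over scrambled (horizontal axis, points with 95% intervals) for the 48 tested calcium genes, grouped by role, with *Atp2a2*, *Itpr3*, *Stim1*, *Orai1* and *Calm2* in red and the median of each gene's chromosome as an orange tick. The interval of *Calm2* starts at 0.11 while those of *Atp2a2*, *Itpr3*, *Stim1* and *Orai1* include 0, and *Atp2b4* stands at -2.92 from 28 scrambled and 3 knockdown reads.

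Several of the 9 genes belong to differentiated muscle, so the markers of differentiation were read beside them. Of 19 myotube genes, 6 had reads and 2 were tested, *Tnnc1* and *Acta1*, with 0 called in the edgeR test or in any of the 13 alternatives, DESeq2 included, where 5.55% of all tested genes were called in the edgeR test, and 0 at an unadjusted p under 0.05 in edgeR. Their summed level was 23.2 and 18.6 TMM-scaled CPM in scrambled against 9.95 and 20.8 in knockdown. *Myog*, *Mymk*, *Mymx*, *Ckm*, *Myh3* and *Ttn*, which define differentiating and fusing cells, had 0 reads in every library, as did *Atp2a1* and *Sln*.

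The label of myoblasts was checked on 7 myoblast genes, of which 6 had reads and 3 were tested. *Myf5* had 113 to 190 reads per library and was not called. *Des*, encoding the muscle intermediate filament desmin, fell by 0.56 on the log2 scale and *Cdh15*, encoding M-cadherin, fell by 2.55, and both were called lower, 2 of the 3 tested genes where 3.22% of all tested genes were. The call of *Des* was lost with the replicate block (-0.55, adjusted p = 0.0526 from edgeR) and in DESeq2 with the parametric fit. It was also lost without scrambled 2 (-0.41), knockdown 1 (-0.63) or knockdown 2 (-0.50), where only the group with 2 libraries gave the spread. *Cdh15* was called under each of the 13 alternatives. The part of *Des* and *Cdh15* in the values of the calcium genes was not tested. The list summed to 481 and 550 TMM-scaled CPM in scrambled compared with 350 and 308 in knockdown. *Myod1*, a defining gene of C2C12 myoblasts, had 1 read over all libraries and *Pax7* had 0, and the widely used cytoskeletal gene *Septin2* had 3, so that a count near 0 in these files is not by itself a measure of absent RNA. Genes of endothelial cells, macrophages and adipocytes had reads for 2 of 5, 3 of 5 and 1 of 4 members, summing to at most 0.83, 5.84 and 0.60 TMM-scaled CPM in a library.

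None of the canonical transcripts of the 9 genes held a run of 4 or more CA dinucleotides (the run CACACACA, searched on the transcript strand), the kind of element that the hnRNP L protein is known to bind. Such a run was found in 19.3% of the canonical transcripts of 8662 tested genes. No match says only that these letters are not in the spliced transcript, and introns were not searched.

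**Figure D4:**
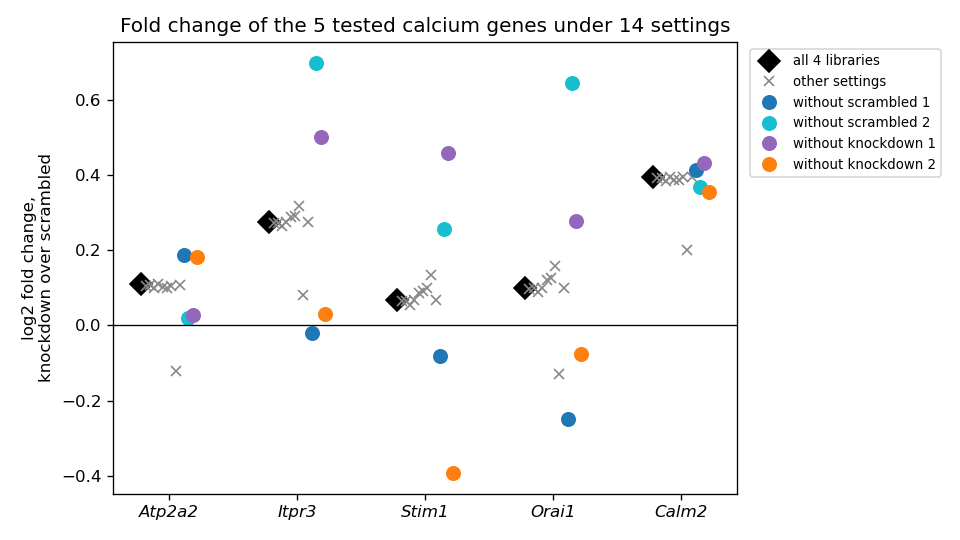
Log2 fold change of knockdown over scrambled (vertical axis) of the 5 tested genes with all 4 libraries (black diamonds), with each library left out in turn (coloured circles) and under the other settings (grey crosses). *Calm2* lies between 0.20 and 0.43 under the alternatives, whereas *Atp2a2*, *Itpr3*, *Stim1* and *Orai1* each cross 0 under at least 1 of them.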

How the data were processed

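Nanopore direct RNA reads of 2 scrambled and 2 knockdown libraries were used. The authors used guppy for basecalling, minimap2 2.17 for mapping to GRCm39 and HTSeq 0.9.1 for counting, and the deposited files hold raw counts per gene, with reads not assigned to a gene listed apart and left out of library sizes. The annotation release and the strand setting are not given in the sources used here. Of 56748 gene IDs, 56017 were matched to GENCODE vM39 for symbols, positions and transcripts.

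Differential expression was tested with edgeR 4.0.16 (R 4.3.3, limma 3.58.1) by its quasi-likelihood test over the 8670 genes that filterByExpr kept, after TMM normalization and with Benjamini-Hochberg adjustment. A call needed, after the authors' thresholds, a mean normalized count over 10, a log2 fold change beyond 0.5 in either direction and an adjusted p under 0.05. Standard errors were derived from the fold change and the F statistic, and normalized counts are TMM-scaled to the average library total over tested genes, and CPM use the same scaling except in the limits on a count of 0, which are per counted read. DESeq2 1.42.0 was an alternative. Shares have exact Clopper-Pearson intervals.

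Replicate numbers pair the libraries by the batch in the labels, and deviations from the group means had a correlation of 0.022 between groups over 2575 genes with a mean normalized count of at least 100. The replicate block was an alternative, beside RLE factors, 2 other filters, a robust fit, chromosome medians removed, mitochondrially encoded genes left out and each library left out in turn.

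The calcium genes and all lists were chosen with earlier results of these data known. The genes named are the 9 genes, *Hnrnpl*, their paralogues, *Pln*, each calcium gene with an adjusted p under 0.05, the gene with the most reads in each list and the nearest profiles of *Calm2*. Marker lists of myoblasts, myotubes and other cell types were read as whole lists, and the markers named singly were picked after their values were seen. Some genes of these lists are not reported here. *Mrln*, *Uqcc2*, *Rabep2*, near copies, triad genes without reads and *Septin2* were added as context after their values were seen.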

Additional observations from a re-analysis of the deposited data

How the results depend on the processing

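None of the 9 calcium genes was called under any of 13 alternatives. *Atp2a1* and *Sln* had no reads to fit. *Ryr1* and *Casq2* were fitted only where low counts were not filtered out, and those values are not given here. The adjusted p of *Calm2* passed the threshold with no filter on low counts, at 0.39 on the log2 scale. With the chromosome medians removed, *Atp2a2* turned to -0.12 and *Orai1* to -0.13. Over the libraries left out in turn, *Atp2a2* ranged from 0.02 to 0.19, *Itpr3* from -0.02 to 0.70, *Stim1* from -0.39 to 0.46, *Orai1* from -0.25 to 0.65, *Calm2* from 0.36 to 0.43 and *Hnrnpl* from -1.03 to -0.48. *Stim1* turned negative without scrambled 1 (-0.08) and without knockdown 2 (-0.39), *Orai1* without scrambled 1 (-0.25) and without knockdown 2 (-0.08), and *Itpr3* without scrambled 1 (-0.0208). The cause was not tested. *Hnrnpl* had a value of -0.78 but an adjusted p of 0.0567 in DESeq2 with the parametric fit. Over all genes, 202 were called higher and 279 lower. DESeq2 called 80 and 148 with the local fit and 44 and 71 with the parametric fit, and 106 and 180 were called with the chromosome medians removed. Leaving out 1 library gave 82 to 183 higher and 112 to 261 lower, with the fewest without knockdown 1. Of the calcium lists, 0 to 1 were called higher (*Hsp90b1* without scrambled 1, *Esyt1* without scrambled 2) and 0 to 1 lower. *Cacng1* was the 1 called lower, and 0 were called lower in DESeq2 with either fit or with the chromosome medians removed. With the replicate block, the paired log2 fold changes were 0.11 for *Atp2a2*, 0.32 for *Itpr3*, 0.10 for *Stim1*, 0.16 for *Orai1* and 0.39 for *Calm2* (adjusted p = 0.168 from edgeR), and the block gave 204 called higher and 280 lower over all genes. It ended the call of the myoblast gene *Des* and raised the adjusted p of *Ahcyl1* above the threshold, and it changed no call of *Hnrnpl*, *Cacng1*, *Cdh15* or the 9 genes. Limiting the family shares to genes with at least 10 reads over all libraries removed no gene of the *Itpr*, *Stim* and *Orai* families and so tested nothing. The counts of *Stim1*, *Orai1* and *Itpr3* limit what could be detected, and those of *Ryr1*, *Casq2*, *Atp2a1* and *Sln* allow no comparison.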
